A study of Mus musculus with 79 samples.

Results

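The question was which cell identities fill each of the sorted fractions taken from one regenerating nerve bridge 14 days after repair. The comparison held 30 of the 79 libraries of the series, a Schwann-labelled library and a macrophage library from each of 15 mice, and every animal with both fractions at day 14 was used. In 7 animals the common peroneal nerve had been grafted to a tibial nerve cut 8 weeks earlier (delayed repair, 4 males), and in 8 animals the graft was made at once (immediate repair, 4 males). All animals were S100β-eGFP mice, in which a human S100β promoter drives green fluorescent protein, so that Schwann cells were recognised by a transgene and not by a surface antigen. Macrophages were collected as cells positive for F4/80, CD14, CD16/32 and CD11b, and Schwann cells as fluorescent cells negative for these antigens, after removal of cells that bound antibodies to Ly6G, Siglec F, CD3e, Thy1.2, CD31 and Ter119, among others. The paper reports a purity check, in which a subset of sorted cells was run again and a sort had to reach a minimum enrichment. The panel named no antigen specific to dendritic cells, and ages were not given in the sources used here. Each library was made from 1000 sorted cells by full-length cDNA amplification, with 4 ng of amplified cDNA for macrophages and 1.5 ng for the Schwann-labelled cells. Since both fractions of a mouse were compared with each other, the fractions also differ in this input, which cannot be told apart from the sort.

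Schwann cells are the glia of peripheral nerve. They arise from the neural crest under the transcription factor Sox10, they carry the calcium-binding protein S100B, and after injury they shed their myelin program and adopt a repair state that guides axons across the gap. Macrophages enter the same bridge, clear debris by receptor-mediated uptake and lysosomal digestion, and need the receptor Csf1r. Dendritic cells depend on the receptor Flt3 and present antigen on MHC class II, and once mature they express the chemokine receptor Ccr7, which carries them through lymphatics to the lymph node, and the actin-bundling protein fascin (Fscn1).

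The macrophage fraction held total counts of 15751800 to 27972900 per library (median 19231900) and the Schwann-labelled fraction 11614900 to 29358600 (median 21420400), so that 3 counts, the limit that a count of 0 allows, correspond to 0.102 to 0.258 CPM (counts scaled to a common library total of 1e6). That limit covers counting error only, because the reads carried no molecular identifiers. Levels in CPM are relative to each library's total. In libraries made from a fixed number of sorted cells, a lower level of a marker can mean fewer cells of that type or less of its RNA per cell, and these cannot be told apart. The Schwann-labelled libraries varied more among animals than the macrophage libraries: the standard deviation over animals was larger in the Schwann-labelled fraction for 89.1% of the genes tested, with a median of 0.589 against 0.323 on the log2 scale, and Spearman correlations between pairs of libraries, across genes, had a median of 0.881 against 0.971. In 5 animals a library stood apart by a marker list of another cell type, which is described beside the lists it touches.

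The genes of the macrophage sorting antigens were lower in the Schwann-labelled fraction of every animal. Emr1 (Adgre1, F4/80; chr17:57358691-57483527, plus strand) was at 8.17 to 197 CPM in the Schwann-labelled libraries (median 54.7) and at 850 to 1494 CPM in the macrophage libraries (median 1155). Fcgr3, which encodes CD16 (chr1:171051174-171064935, minus strand), was at 14.5 to 144 CPM (median 40.5) against 598 to 1279 CPM (median 795). Itgam, which encodes CD11b (chr7:128062640-128118491, plus strand), was at 19.8 to 184 CPM (median 72.1) against 416 to 593 CPM (median 448). For Cd14, the lipopolysaccharide co-receptor, the values were 86.0 to 1899 CPM (median 346) against 4465 to 7323 CPM (median 6358). The fractions did not overlap for any of these genes, nor for Fcgr2b (CD32). In edgeR's quasi-likelihood test with the animal as a block, the fitted log2 difference, Schwann-labelled minus macrophage, was -5.10 (SE 0.322, adjusted p = 1.99e-10) for Emr1 and -3.36 (SE 0.251, adjusted p = 1.64e-09) for Itgam. The level in the Schwann-labelled fraction, as a percent of the macrophage level of the same animal, had a median over animals of 5.05% for Cd14, 5.19% for Emr1, 5.64% for Fcgr3 and 13.9% for Itgam. The genes of the sorting antigens were thus not absent from the Schwann-labelled libraries, and this percentage was highest in delayed replicate 4, at 35.5% for Cd14 and 14.5% for Emr1.

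**Figure D1:**
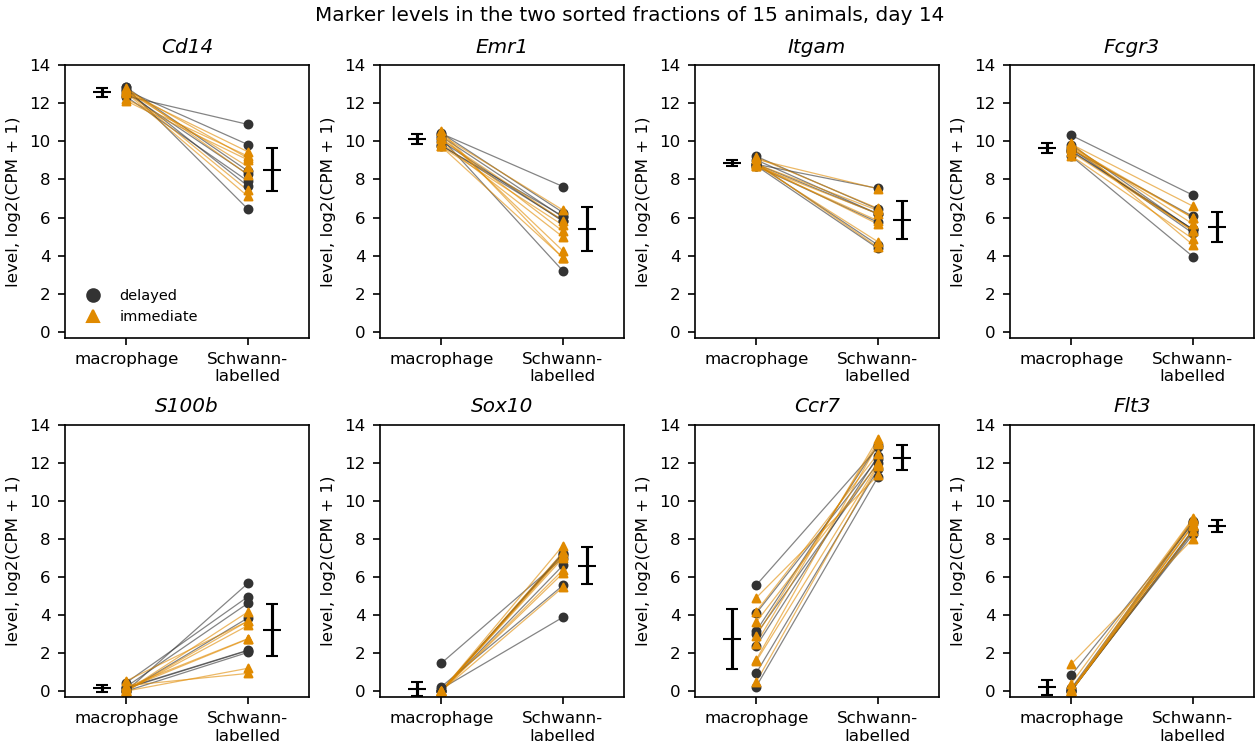
Level of each marker gene, as log2(CPM + 1), in the macrophage and the Schwann-labelled library of the same animal, joined by a line; circles are delayed and triangles immediate repair, and the bars beside the points give the mean and SD of 15 animals. The 4 sorting antigen genes fall and the Schwann cell and dendritic cell genes rise from the macrophage to the Schwann-labelled library in each of the 15 animals, and S100b stays the lowest of the genes that rise.

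The glial genes S100b and Sox10 were found almost only in the fraction labelled for Schwann cells. S100b (chr10:76253853-76261159, plus strand) was at 0.903 to 49.5 CPM in the Schwann-labelled libraries (median 9.88) and at 0 to 0.444 CPM in the macrophage libraries. Sox10 (chr15:79154908-79165240, minus strand) was at 13.7 to 199 CPM (median 126), against 0 to 1.75 CPM. The fractions did not overlap for either gene, and the fitted log2 difference was 6.28 (SE 0.724, adjusted p = 5.07e-07) for S100b and 10.27 (SE 0.616, adjusted p = 1.01e-10) for Sox10. Per kilobase of exon, the median level of Sox10 in the Schwann-labelled fraction was 45.4 CPM and that of S100b 6.66 CPM.

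Among the lists of cell identity genes, that of mature migratory dendritic cells had the highest summed level in the Schwann-labelled fraction by the median over libraries. Ccr7 (chr11:99144196-99155077, minus strand) was at 2413 to 9817 CPM in the Schwann-labelled libraries (median 4748), against 0.179 to 46.2 CPM in the macrophage libraries (median 6.47). It was the 12th most abundant gene of the fraction by its median level. Flt3 (chr5:147330741-147400489, minus strand) was at 254 to 539 CPM (median 419) against 0 to 1.67 CPM. Neither gene overlapped between the fractions. The log2 difference was 9.56 (SE 0.623, adjusted p = 2.90e-10) for Ccr7 and 11.20 (SE 0.584, adjusted p = 1.81e-11) for Flt3. Per kilobase of exon, the median level of Ccr7 was 2401 CPM, above Fscn1 at 663 CPM, the chemokine Ccl22 at 484 CPM, Col1a1 at 245 CPM, Cd14 at 211 CPM, Cacnb3 at 186 CPM, Flt3 at 114 CPM and Sox10 at 45.4 CPM in the same libraries. The label of this fraction names Schwann cells, and its defining glial genes were present. The summed level of the mature migratory dendritic cell list (32 genes) was 13855 to 53846 CPM. That of the list of Schwann cell genes of all states (17 genes) was lower in every library, at 400.1 to 2905 CPM. These sums do not weigh one identity against the other. The lists differ in length, the first holds genes that macrophages also express, and repair and myelin genes are listed apart from the second. The share of cells of each type was not measured by these libraries.

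Of the antigens that the sort was to remove, the genes of 4 were examined. Cd3e reached 2.39 CPM in the Schwann-labelled and 0.514 CPM in the macrophage fraction, and Thy1 reached 2.80 and 0.818 CPM. Siglec F, listed as Siglec5, reached 6.3 and 5.6 CPM. Pecam1 (CD31) was at 1.37 to 140 CPM in the Schwann-labelled fraction (median 15.1) against 7.64 to 22 CPM (median 9.78), which did not pass the test (log2 difference 0.11, adjusted p = 0.816), and the sign of this difference turned when delayed replicate 3 or immediate replicate 8 was left out. Ly6g was not analysed here.

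Across all genes, most of those tested differed between the fractions. Of 10596 genes that reached 5 CPM or more in 6 or more of the 30 libraries, 3601 (34.0%) were higher in the Schwann-labelled fraction and 3107 (29.3%) in the macrophage fraction at an adjusted p under 0.05. With a difference of at least 4-fold as well, 1368 (12.9%) were higher in the Schwann-labelled and 666 (6.29%) in the macrophage fraction. The 15 libraries of each fraction did not overlap for 1257 genes with the Schwann-labelled libraries above (11.9%) and for 549 with the macrophage libraries above (5.18%). The split of the calls rests on the scaling: scaled to library size alone, 73.4% of the calls were higher in the Schwann-labelled fraction, against 53.7% with TMM scaling, and the median log2 difference over all genes was 0.40 in place of 0.04. All differences below are TMM-scaled and so relative to a median near 0, and a gene that differs by less than this shift has no direction apart from the scaling.

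**Figure D2:**
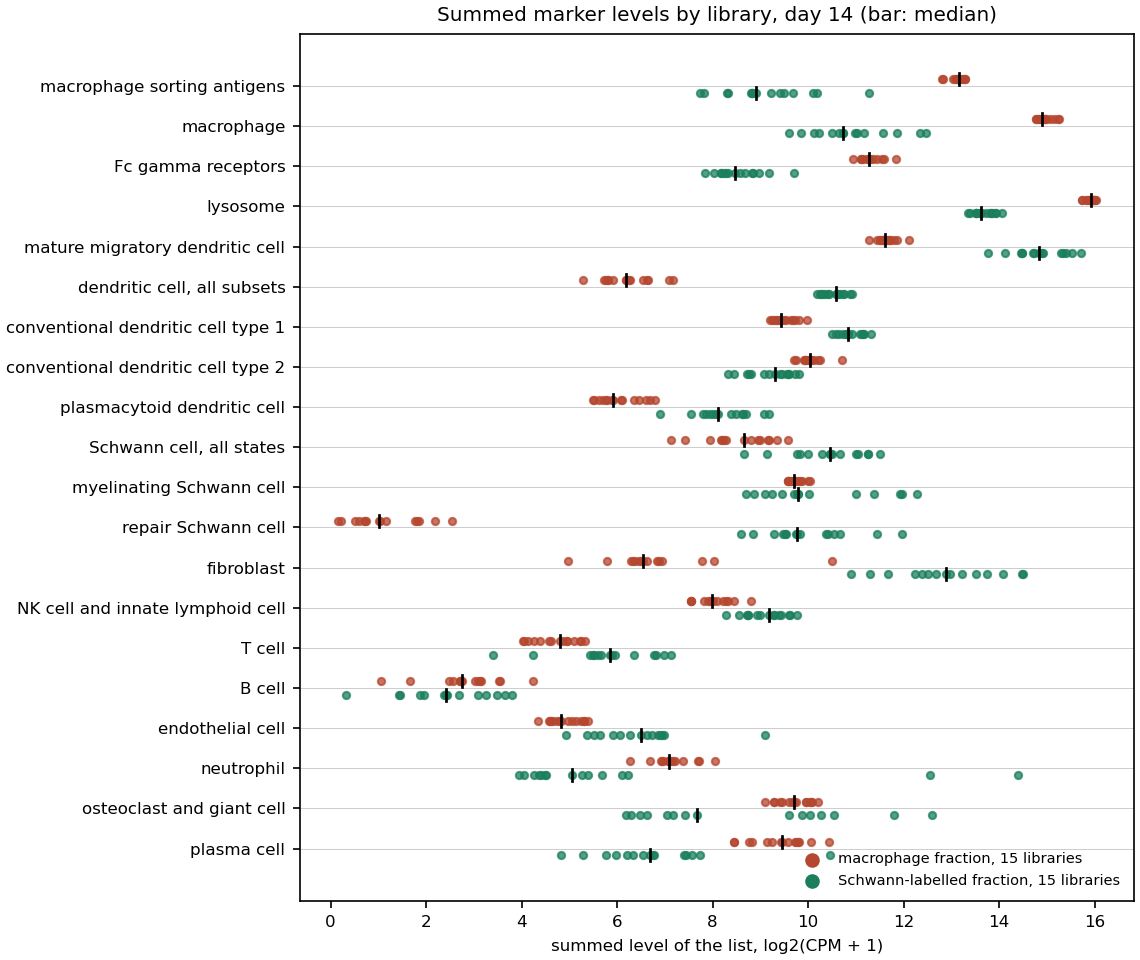
Summed level of each marker list, as log2(CPM + 1), with 1 point per library (15 macrophage, 15 Schwann-labelled) and a bar at the median. The macrophage and lysosome lists separate the fractions in one direction, the mature dendritic cell, repair Schwann cell and fibroblast lists in the other, the neutrophil and plasma cell lists have 1 or 2 Schwann-labelled libraries far above the rest, and the osteoclast list spreads from 71.9 to 6152 CPM over the Schwann-labelled libraries.

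Macrophage genes were uniformly higher in the macrophage fraction. All 18 genes of the macrophage list were tested and called higher there, with a median log2 difference of -4.93, beside a median of 0.04 over all genes tested, and 15 of them did not overlap between the fractions. Csf1r, the receptor on which macrophages depend, was at 956 to 1829 CPM in the macrophage libraries and at 18 to 511 CPM in the Schwann-labelled libraries. C1qa, which encodes a chain of complement C1q, was at 643 to 1688 CPM against 6.02 to 119 CPM. The mannose receptor Mrc1 differed by -6.23 (SE 0.560) and the haemoglobin scavenger receptor Cd163 by -7.17 (SE 0.895) on the log2 scale. The summed level of the list in the Schwann-labelled library was 2.25% to 14.6% of that in the macrophage library of the same animal (median 6.04%). Which cells in the Schwann-labelled fraction gave these levels was not tested. All 10 genes with the largest difference in favour of macrophages that held in each of the 15 pairs were at a median of 13.2 CPM or less in the Schwann-labelled fraction; they were Cbr2, Fcna, Cd163, Ceacam19, Mmp27, Reps2, Gm14461, Csf3, Il1a and Ccl8. Of these, Cbr2, a carbonyl reductase, was at 28.7 to 176 CPM in macrophages and at 0 to 2.13 CPM in the Schwann-labelled libraries (log2 difference -8.42, SE 0.634, adjusted p = 1.89e-09), and the monocyte-attracting chemokine Ccl8 was at 458 to 1577 CPM against 0.289 to 134 CPM (log2 difference -6.74).

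The genes of uptake and digestion followed the macrophage fraction. All 28 lysosomal genes tested were higher in macrophages (median log2 difference -1.91), of which 26 held when the libraries were scaled to library size alone. The cathepsins Ctsb and Ctsl differed by -3.94 (SE 0.124) and -4.36 (SE 0.184), and Cd63, which is also a marker of secretory vesicles, by -0.46 (SE 0.146), a call that was lost under that scaling. All 5 genes of the Fcγ receptor list, Fcer1g among them, were higher in macrophages (median log2 difference -4.13). So were 10 of 11 Toll-like receptor pathway genes, with Tlr2 at a median of 843 CPM against 70.7 CPM. Fcgr3 and Fcgr2b of the first list and Cd14 of the second are genes of sorting antigens. Their direction was selected for by the sort and is no separate result on uptake. Of 20 genes of scavenging and efferocytosis, 15 were higher in macrophages, among them the apoptotic cell receptor Mertk (log2 difference -3.86) and the lipid transporter Abca1 (-4.18). The 3 that were higher in the Schwann-labelled fraction were Timd4, a phosphatidylserine receptor, at 80.0 to 590 CPM against 0 to 4.38 CPM, Megf10, a glial engulfment receptor with no count in any macrophage library, and the bridging protein Mfge8 (log2 difference 1.06, SE 0.281). Of 17 complement genes, 12 were higher in macrophages, among them Itgam, again a gene of a sorting antigen. The 3 higher in the Schwann-labelled fraction were the proteases C1s and C2 and the inhibitor Serping1 (log2 difference 3.21, SE 0.504). C2 lost its call when any one of delayed replicates 2, 3 and 6 or immediate replicates 2, 6 and 7 was left out.

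The mature migratory dendritic cell list moved almost as a whole toward the Schwann-labelled fraction. Of its 32 genes, all tested, 31 were called higher there and 0 in macrophages, 26 by at least 4-fold, and 25 did not overlap between the fractions. Its median log2 difference was 4.86. The gene not called was Anxa3 (log2 difference 0.32, adjusted p = 0.235), which passed under library size scaling and without the block on animal. In every animal the summed level was higher in the Schwann-labelled library, at 313% to 1932% of the macrophage library (median 914%). Of the 32 genes, 4 reached 5 CPM in no macrophage library and passed the filter only through the Schwann-labelled libraries. The list and the values by which it was chosen were known from earlier results of these data, and it is therefore a description.

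Among its members, fascin (Fscn1) was at 678 to 4315 CPM in the Schwann-labelled libraries (median 1774) and at 0.139 to 7.57 CPM in macrophages (log2 difference 9.90, SE 0.569, adjusted p = 5.78e-11). Ccl22, a chemokine that attracts regulatory T cells, was at 174 to 3314 CPM (median 1072) against 0.416 to 34.9 CPM. The calcium channel subunit Cacnb3 was at 157 to 911 CPM against 0 to 3.96 CPM. None of these genes overlapped between the fractions. The interleukin-12 subunit Il12b was at 127 to 2175 CPM against 0 to 28.9 CPM, and the costimulatory receptor Cd40 at 271 to 2211 CPM against 40.2 to 154 CPM. Tmem123, which was the most abundant gene of the list, was at 2137 to 12689 CPM against 218 to 320 CPM. Members that macrophages also express differed less, with log2 differences of 0.95 (SE 0.140) for Cd83 and 0.43 (SE 0.135) for Cd274, which encodes PD-L1 and lost its call without the block on animal (adjusted p = 0.0619). Il12b, Cd40 and Tmem123 were chosen with their values already seen.

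Genes shared by dendritic cell subsets behaved alike. Of 11 such genes, 10 were higher in the Schwann-labelled fraction and 8 did not overlap. Zbtb46, a transcription factor of classical dendritic cells, was at 129 to 348 CPM against 0.325 to 4.03 CPM (log2 difference 6.68, SE 0.289, adjusted p = 2.49e-12). Btla, an inhibitory receptor of lymphocytes and dendritic cells, was at 74.3 to 190 CPM in the Schwann-labelled libraries, and the 15 macrophage libraries together held 1 count, a ratio of 36054 with a 95% counting interval of 6471 to 1424100. Itgax, which encodes CD11c, was the exception, at 10.6 to 90.1 CPM against 22.7 to 108 CPM (log2 difference -0.97, SE 0.244, adjusted p = 0.00205), with overlapping fractions. Of 12 genes that mark type 1 conventional dendritic cells, 8 were higher in the Schwann-labelled fraction and 0 in macrophages. Of 8 type 2 genes, 4 were higher in the Schwann-labelled fraction and 3, Clec10a, Clec4a2 and Sirpa, in macrophages, which is near the shares over all genes tested (34.0% and 29.3%). Clec9a, a type 1 receptor, had a median of 8.83 CPM and Cd209a, a type 2 lectin, of 84.5 CPM, both far below Ccr7. Of 8 plasmacytoid dendritic cell genes, 7 were higher in the Schwann-labelled fraction, with Siglech at a median of 46.0 CPM. These 7 reached 5 CPM in no macrophage library and so passed the filter only through the Schwann-labelled libraries. The same holds for 6 of the natural killer and innate lymphoid cell genes and 6 of the 11 genes shared by dendritic cell subsets. It also holds for 4 of the 12 type 1 genes and 1 of the 8 type 2 genes, so that all these counts are descriptions. Of the 11 natural killer and innate lymphoid cell genes tested, 9 were higher there, and their defining gene Ncr1 had a median of 6.51 CPM and no count in any macrophage library.

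Genes of antigen presentation and costimulation were mostly higher in the Schwann-labelled fraction. Cd74, the MHC class II chaperone, was at 9517 to 23579 CPM in the Schwann-labelled libraries (median 18781) and at 5237 to 14103 CPM in the macrophage libraries (median 8081). The ranges overlapped, but the Schwann-labelled library was higher in 15 of 15 animals (log2 difference 0.77, SE 0.132, adjusted p = 5.69e-05). H2-Aa, H2-Ab1 and H2-Eb1, the chains that bind the peptide, differed by 1.38 (SE 0.157), 1.31 (SE 0.154) and 1.48 (SE 0.162). Of 14 class II genes 10 were higher in the Schwann-labelled fraction, 3 in macrophages (H2-DMa, Ctss and March1), and the median log2 difference was 1.34. The libraries did not overlap for 5 of the 10, among them H2-Oa (8.22, SE 0.624) and H2-Ob (6.30, SE 0.437), the chains of a regulator of peptide loading. Of the 14 class II genes, 3 reached 5 CPM in no macrophage library and passed the filter only through the Schwann-labelled libraries. The same holds for 2 of the 12 ligands below, so that both counts are descriptions. Ciita, the master regulator of class II genes, was at 25.6 to 126 CPM against 1.53 to 16.1 CPM. Of 12 ligands of T cell costimulation and checkpoints, 10 were higher in the Schwann-labelled fraction, 6 without overlap (median log2 difference 2.93), among them Cd80 (3.0, SE 0.189), Icosl (3.58, SE 0.189) and Cd70, whereas Cd86 did not pass the test (0.37, adjusted p = 0.0679), though it passed in DESeq2, in limma-voom, under library size scaling, without the block, and with delayed replicate 2, delayed replicate 4 or immediate replicate 7 left out (adjusted p from 0.000439 to 0.0362). The file's gene row for VISTA, 4632428N05Rik, was higher in macrophages (log2 difference -2.83, SE 0.343). MHC genes have similar copies, and how reads that fit several copies were shared out is not given in the sources used here, so that their single values are uncertain. The class II genes named and Ciita were chosen with their values already seen.

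The NF-κB genes differed by member. Of 16, 10 were higher in the Schwann-labelled fraction and 3 in macrophages (Tnfaip3, Tnip1 and Bcl3), with a median log2 difference of 0.50, little above the shift that scaling makes. Scaled to library size alone, 12 were higher in the Schwann-labelled fraction and 1, Tnfaip3, in macrophages, and the sign of Bcl3 turned. Bcl3 also lost its call when delayed replicate 2 or 6 or immediate replicate 1 or 6 was left out (log2 difference -0.26 to -0.22). Of the alternative pathway, the kinase Map3k14 differed by 4.28 (SE 0.170), Relb by 2.12 (SE 0.118) and Nfkb2 by 0.59 (SE 0.088), and of the canonical pathway Rel differed by 1.62 (SE 0.146), whereas Nfkb1 (0.03, adjusted p = 0.763) and the inhibitor Nfkbia (-0.15, adjusted p = 0.152) did not pass the test. Both were called higher in the Schwann-labelled fraction under library size scaling (0.39 and 0.21), and Nfkbia was called higher in macrophages without immediate replicate 5 (-0.22).

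Since the mature dendritic cell genes moved together, their promoters were searched for letters of motifs, from 250 bases before to 50 after each annotated start (RefSeq, GRCm38.p6), on both strands. The letters were GGG and TTTCC with any 2 bases between them for κB, GAGGAAGT for PU.1, and ACAAAG for SOX factors, and none of these motifs contains another. Of 24 genes of the list with a promoter in the table, 2 (8.33%) held the κB letters, 3 (12.5%) the PU.1 letters and 6 (25.0%) the SOX letters. Over the full set of 27025 the shares were 1.89%, 3.69% and 21.0%. A gene can have several promoters, and whether the full set counts genes or single promoters was not settled here. Its shares may thus differ in unit from those of the lists. Of 10 Schwann cell genes with a promoter, 2 held the SOX letters, and of 14 macrophage genes 2 (14.3%) held the PU.1 letters. The κB letters also lie in both listed promoters of Fcgr3, which was higher in macrophages. The promoters below show the contrast, with the matched letters in capitals: Nfkb2 with κB letters starting 11 bases before its first start (chr19:46304487-46304786, plus strand), Samsn1, an adaptor protein of the mature dendritic cell list with 2 PU.1 matches at -50 and -30 (chr16:75909217-75909516, minus strand), and S100b with none of these motifs (chr10:76253586-76253885, plus strand). A match is a description of the sequence and not a site of binding.
Nfkb2: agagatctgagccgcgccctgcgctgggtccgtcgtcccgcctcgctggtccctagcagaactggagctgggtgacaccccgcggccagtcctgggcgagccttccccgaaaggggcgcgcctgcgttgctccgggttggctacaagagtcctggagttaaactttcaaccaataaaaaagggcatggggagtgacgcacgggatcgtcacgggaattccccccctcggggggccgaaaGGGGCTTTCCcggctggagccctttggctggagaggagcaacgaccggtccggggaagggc
Samsn1: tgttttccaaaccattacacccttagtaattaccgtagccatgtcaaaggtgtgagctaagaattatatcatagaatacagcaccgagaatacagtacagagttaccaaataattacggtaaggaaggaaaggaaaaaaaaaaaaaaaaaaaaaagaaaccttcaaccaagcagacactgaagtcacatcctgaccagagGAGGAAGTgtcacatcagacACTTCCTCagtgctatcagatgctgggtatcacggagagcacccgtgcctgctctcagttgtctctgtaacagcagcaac
S100b: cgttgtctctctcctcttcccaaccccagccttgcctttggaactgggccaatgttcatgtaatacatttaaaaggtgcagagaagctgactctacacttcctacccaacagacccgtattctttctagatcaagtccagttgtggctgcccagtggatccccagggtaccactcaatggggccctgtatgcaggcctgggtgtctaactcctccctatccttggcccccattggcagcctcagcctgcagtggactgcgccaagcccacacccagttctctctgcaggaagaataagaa
The log2 difference was 0.59 for Nfkb2, 4.79 (SE 0.181) for Samsn1, which was at 448 to 2159 CPM against 12.3 to 48.1 CPM, and 6.28 for S100b.

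**Figure D3:**
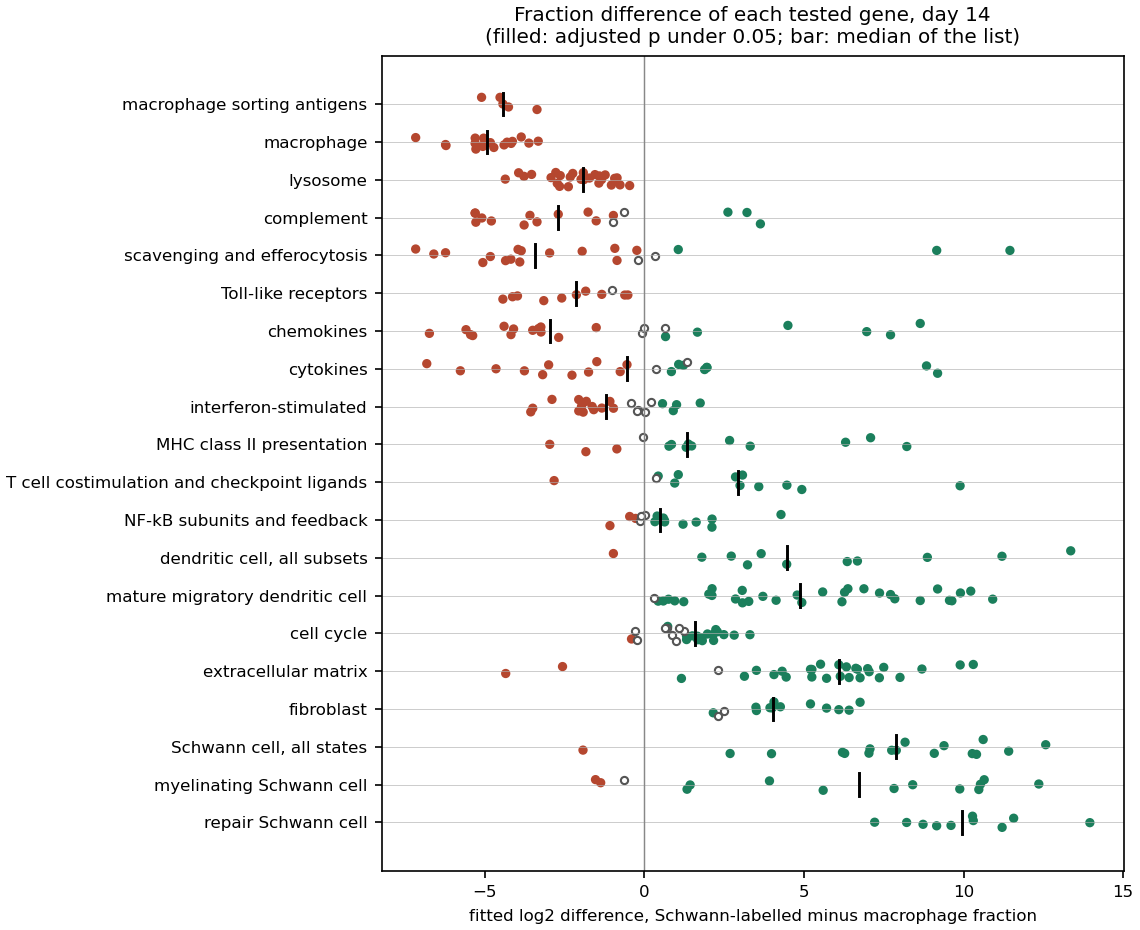
Fitted log2 difference of each tested gene, Schwann-labelled minus macrophage fraction, by gene list; filled points passed an adjusted p of 0.05 (green, higher in Schwann-labelled; red, higher in macrophages), open points did not, and the bar is the median of the list. The medians run from -4.93 for the macrophage list to 9.94 for the repair Schwann cell list.

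Genes of Schwann cells of all states were higher in the Schwann-labelled fraction with 1 exception. Of 17 tested, 16 were called higher there, 14 without overlap, and the median log2 difference was 7.89. Of these 17, 12 reached 5 CPM in no macrophage library and passed the filter only through the Schwann-labelled libraries, so that this count too is a description. The cadherin Cdh19 was at 15.4 to 189 CPM against 0 to 0.894 CPM. Kcna1, a potassium channel subunit, had no count in any macrophage library and was at least 4332-fold higher, with 3 counts over the group as the floor. Ednrb, an endothelin receptor, was higher in macrophages, at 97.2 to 754 CPM against 31.8 to 352 CPM (log2 difference -1.92, SE 0.288). Ednrb made up most of the summed level of this list in the macrophage fraction, 138 to 762 CPM.

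Repair Schwann cell genes were near 0 in the macrophage fraction. Of 14 genes 10 were tested, all 10 were higher in the Schwann-labelled fraction, and 9 did not overlap. These 10 passed the filter on low levels only through the Schwann-labelled libraries, so that the count is a description. The summed level was 383 to 4006 CPM in the Schwann-labelled and 0.1 to 4.8 CPM in the macrophage fraction. Fgf5, a growth factor of denervated Schwann cells, was at 9.48 to 455 CPM (median 91.1), with no count in any macrophage library, and was at least 11961-fold higher. Ngfr, the p75 neurotrophin receptor, was at 2.78 to 65.5 CPM (median 19.9), again with no macrophage count. The trophic factor gene Gdnf was at 5.88 to 76.3 CPM, Btc at 20.2 to 421 CPM and the matrix protein Tnc, which fibroblasts make too, at 72.6 to 2693 CPM. Shh and Olig1, genes often used to define the repair state, were below the filter, at medians of 0 and 0.719 CPM. Of the 10 genes with the largest difference in favour of the Schwann-labelled fraction in each of the 15 pairs, Fgf5, Pcdh20, Slitrk6, Adcy6, Kcna6, Syt4, Kcna1 and Dscaml1 had no macrophage count and were at least 2921-fold higher, and the others were Btla and Gldn. Gldn, gliomedin of the node of Ranvier, had 2 counts in macrophages, a ratio of 11964 with a counting interval of 3312 to 98798. In all, 48 of the genes called had no count in any macrophage library, and 0 had none in any Schwann-labelled library.

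Myelin genes were less uniform. Of 17 genes 14 were tested, 11 were higher in the Schwann-labelled fraction, and Pmp22 (log2 difference -1.53, SE 0.331) and Egr2 (-1.37, SE 0.261) were higher in macrophages. Of the 14, 8 reached 5 CPM in no macrophage library. They passed the filter only through the Schwann-labelled libraries, so that this count is a description. The myelin-associated glycoprotein gene Mag did not pass the test (-0.64, adjusted p = 0.370), and its sign turned without the block on animal. The summed level of the list in the Schwann-labelled fraction, 413 to 4955 CPM, overlapped with 762 to 1045 CPM in macrophages.

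Fibroblast and matrix genes were also higher in the Schwann-labelled fraction, and their levels there varied widely among animals. Of 17 fibroblast genes 14 were tested and 12 were higher in that fraction, but only 1 did not overlap. Of the 14, 4 reached 5 CPM in no macrophage library. They passed the filter only through the Schwann-labelled libraries, so that this count is a description. Col1a1, which encodes a chain of type I collagen, was at 128 to 5229 CPM (median 1450) against 3.95 to 342 CPM (median 11.9; log2 difference 6.42, SE 0.445, adjusted p = 6.12e-10). The fibroblast marker Pdgfra was at 0 to 49.8 CPM (median 3.64), and Dcn at 2.38 to 1136 CPM. Of 29 matrix genes tested, 26 were higher in the Schwann-labelled fraction (median log2 difference 6.09), among them Sparc (6.33, SE 0.272) and periostin (Postn, 6.76, SE 0.360). Among the 29, 6 likewise passed the filter only through the Schwann-labelled libraries, and this count too is a description. Fn1 (-2.56, SE 0.365) and Thbs1 (-4.34, SE 0.601) were higher in macrophages. Schwann cells also make collagens, laminins and tenascin, and the part of each cell type in these levels was not tested. The largest fibroblast level in macrophages, 1455 CPM, came from immediate replicate 7, where the other 7 libraries of the group reached 122 CPM.

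Of 22 chemokine genes tested, 13 were higher in macrophages and 6 in the Schwann-labelled fraction. The neutrophil attractant Cxcl2 was at 3667 to 9620 CPM in macrophages and at 214 to 1648 CPM in the Schwann-labelled fraction, while Ccl5 was at 2.75 to 92.7 CPM against 185 to 1037 CPM, without overlap in either case. Of 21 cytokine genes 11 were higher in macrophages and 8 in the Schwann-labelled fraction. Over all genes tested the shares were 29.3% and 34.0%, so that the Schwann-labelled counts of both lists lie near or below the background. Il10 (log2 difference -5.77, SE 0.690) and Tnf (-3.76, SE 0.255) were higher in macrophages. Il12b (9.19), Il6 (1.89, SE 0.251) and Il1b (1.22, SE 0.175) were higher in the Schwann-labelled fraction. Ccl5, Cxcl2, Il6 and Tnf were chosen with their values already seen. Of 22 interferon-stimulated genes, 13 were higher in macrophages and 4 in the Schwann-labelled fraction. Of 26 cell cycle genes, 17 were higher in the Schwann-labelled fraction and 1 in macrophages (Pcna, -0.40, SE 0.092), though Mki67, the usual marker of dividing cells, did not pass the test (-0.28, adjusted p = 0.326) and turned its sign under library size scaling. Pcna lost its call when the libraries were scaled to library size alone.

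**Figure D4:**
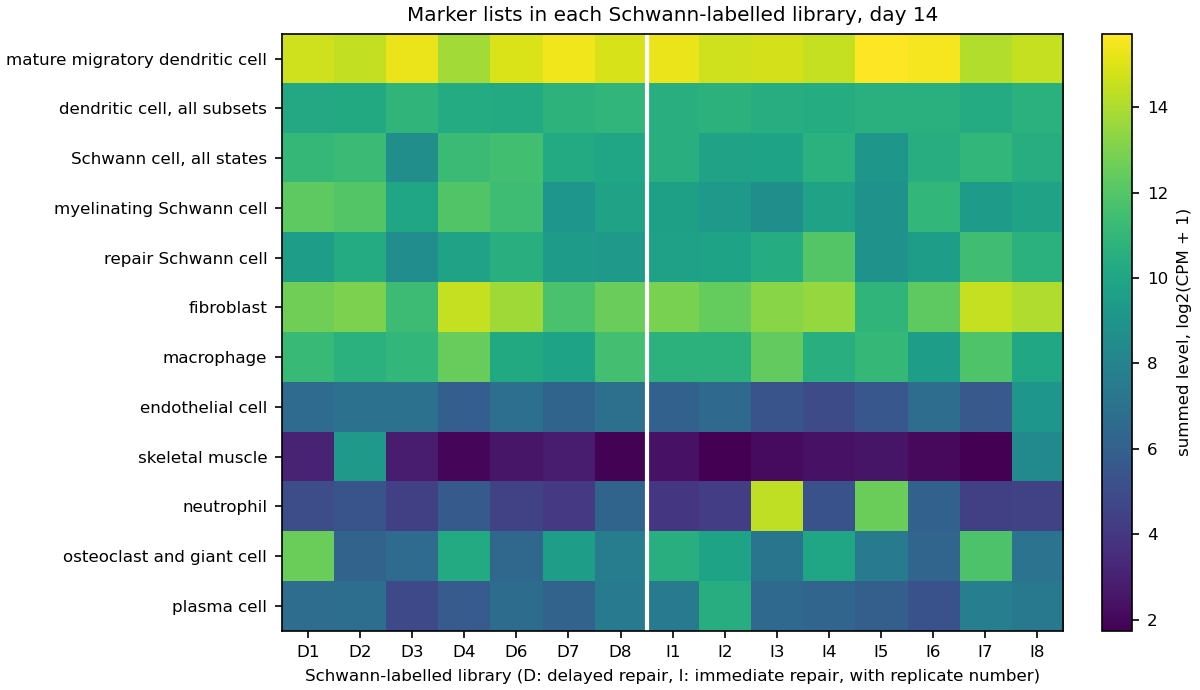
Summed level of marker lists, as log2(CPM + 1), in each of the 15 Schwann-labelled libraries (D, delayed; I, immediate). The mature dendritic cell list is the brightest row in most libraries, and the neutrophil row is bright in I3 and I5, the osteoclast row in D1 and I7, and the plasma cell row in I2.

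The makeup of the Schwann-labelled fraction differed between animals. The neutrophil list had a median of 32.4 CPM in that fraction, but was at 21674 CPM in immediate replicate 3, where the neutrophil granule gene Ngp was at 7473 CPM, and at 6047 CPM in immediate replicate 5. The list of osteoclasts and giant cells was at 6152 CPM in delayed replicate 1, where the protease Ctsk was at 3543 CPM, and at 3534 CPM in immediate replicate 7, beside a median of 202 CPM. The next libraries were immediate replicate 1 at 1493 CPM and delayed replicate 4 at 1232 CPM, so that this list was graded over several animals. The plasma cell list was at 1406 CPM in immediate replicate 2, of which the joining chain Igj made 1325 CPM. These genes were chosen with their values already seen. Without these 5 animals, 3218 genes were higher in the Schwann-labelled and 2742 in the macrophage fraction, 5715 of them called in the same direction as with all 15 animals. The macrophage list counted 18 of 18, the mature dendritic cell list 30 of 32 and the Schwann cell list 16 of 17 with the same directions. With all 15 animals, 4 neutrophil genes were tested, of which 0 were higher in the Schwann-labelled fraction and 2 in macrophages, and without the 5 animals 3 were tested, of which 0 were higher and 1 lower. S100a8, one of the 4, turned its sign and passed the test the other way without the animal block, at a log2 difference of 5.17. It did so in limma-voom too (4.13), whereas DESeq2 called it higher in macrophages (-2.21, adjusted p = 0.0164).

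Among the Schwann-labelled libraries, the level of Ccr7 fell as that of Col1a1 rose. Over 15 animals, Pearson's r of log2(CPM + 1) was -0.77 (permutation p = 0.00049, adjusted over 6 pairs of genes 0.00294) and Spearman's rho -0.73 (adjusted permutation p = 0.0157). Within the repair groups r was -0.77 (7 delayed) and -0.81 (8 immediate). Without the 2 libraries whose Ccr7 level lay farthest from the median, r was -0.68 over 13 animals and the adjusted permutation p 0.0736, so that the relation no longer passed. With TMM-scaled CPM r was -0.79 (adjusted permutation p = 0.00114). Both levels are shares of one total, and the part of this in the correlation was not tested. None of the other 5 pairs of Sox10, Ccr7, Emr1 and Col1a1 passed (lowest adjusted permutation p = 0.0915, for Sox10 and Col1a1, r = 0.58), and no correlation of Emr1 with Ccr7 was called (r = -0.44, adjusted permutation p = 0.158).

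The difference between the fractions was tested for dependence on the timing of repair. No gene passed the fraction by repair interaction in edgeR's quasi-likelihood test (0 of 10596, 0.0%), while 343 had an unadjusted p under 0.05, and DESeq2 called 3 (Fam83g, Htra4 and Kif1b). The gene with the smallest p, Kif1b, a kinesin motor, had an interaction of 0.78 on the log2 scale, which is the delayed minus the immediate difference. For Ccr7 the interaction was -0.27 (SE 1.02) and for Emr1 0.83 (SE 0.542).

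The same comparison at day 5, in 16 other animals with both fractions, was the nearest to this one. Of 11156 genes tested for fraction by day, 586 (5.25%) had a difference that lay further toward the Schwann-labelled fraction at day 14 and 1158 (10.4%) one further toward macrophages. This split rests on the scaling and the tool: 33.6% of the calls were positive here, 54.5% after scaling to library size alone and 50.3% in DESeq2. A total of 1 macrophage library of day 5 with no partner was not used.

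MHC class II genes changed their difference between the days. Of 14 tested, 10 moved toward macrophages by day 14 and 0 toward the Schwann-labelled fraction, with a median interaction of -1.94, beside 0.02 over all genes. For H2-Aa the interaction was -2.31 (adjusted p = 4.55e-08), for Cd74 -1.95 (adjusted p = 3.21e-08) and for Ciita -2.87 (adjusted p = 0.000391). The macrophage levels differed between the days: Cd74 was at 868 to 3737 CPM in macrophages of day 5 (median 2178) and at 5237 to 14103 CPM at day 14, whereas it was at 10892 to 21755 CPM and 9517 to 23579 CPM in the Schwann-labelled libraries. H2-Aa was at 71.6 to 502 CPM in macrophages of day 5, below every value of day 14 (610 to 2113 CPM). Levels of different days come from different animals, and were not tested within the fraction here. Of the 32 mature dendritic cell genes, 13 moved toward macrophages and 0 the other way (median -0.91), with Cd200, a ligand that restrains myeloid cells, at -2.49 (adjusted p = 2.92e-09). Its level in the Schwann-labelled libraries was 785 to 2334 CPM at day 5 and 173 to 1228 CPM at day 14. Ccr7 did not pass (0.74, adjusted p = 0.559), nor did Flt3 (0.76, adjusted p = 0.677).

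Schwann cell genes had larger mean differences at day 14, which the main test did not call. None of the 17 Schwann cell genes, 16 myelin genes or 10 repair genes passed the fraction by day interaction, and DESeq2 called 8, 6 and 2 of them, limma-voom 8, 5 and 4, all toward the Schwann-labelled fraction of day 14. Sox10 was at 0 to 161 CPM in the Schwann-labelled libraries of day 5 (median 20.3) and 13.7 to 199 CPM at day 14, and its log2 difference in log2(CPM + 1) averaged 4.42 (SD 2.2, n = 16 animals) at day 5 and 6.47 (SD 1.05, n = 15 animals) at day 14. The summed mature dendritic cell level of the Schwann-labelled fraction was 30846 to 68497 CPM at day 5 (median 47192) and 13855 to 53846 CPM at day 14 (median 29361), and that of the Schwann cell list 196 to 1181 CPM and 400.1 to 2905 CPM.

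**Figure D5:**
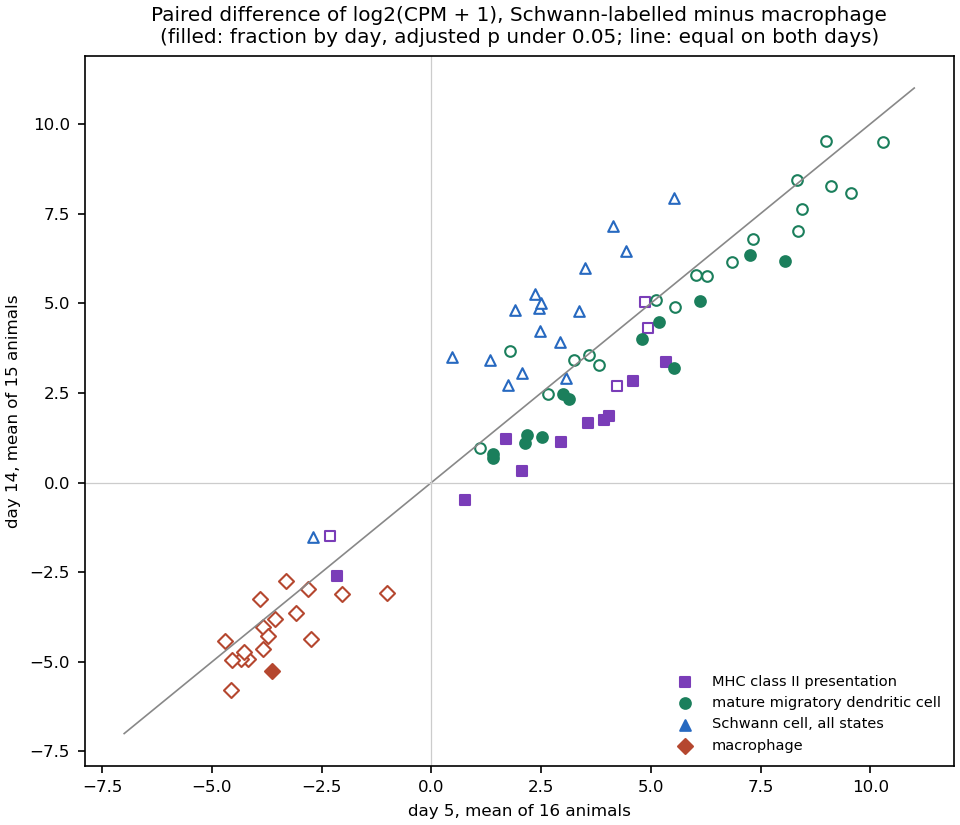
Mean paired difference of log2(CPM + 1), Schwann-labelled minus macrophage, of each gene of 4 lists at day 5 (16 animals) against day 14 (15 animals); filled points passed the fraction by day interaction at an adjusted p of 0.05, and the line marks equal differences. Below the line, 10 of 14 class II genes and 13 of 32 mature dendritic cell genes are filled, while the Schwann cell genes lie above the line or near it with none filled.

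Single genes changed direction between the days. The gap junction gene Gja1 was lower in the Schwann-labelled fraction in 16 of 16 animals at day 5 and higher in 15 of 15 at day 14 (interaction 2.59, SE 0.305, adjusted p = 5.76e-07). It was at 156 to 343 CPM in macrophages of day 5 and at 20.2 to 275 CPM at day 14. The kinase gene Src was higher in the Schwann-labelled fraction in 16 of 16 animals at day 5 and in 5 of 15 at day 14 (interaction -3.18, SE 0.263, adjusted p = 1.62e-09). Its difference at day 14 itself was not called under library size scaling (-0.30, adjusted p = 0.138). Wdr91, an endosomal protein, was higher in the Schwann-labelled fraction in 16 of 16 animals at day 5 and lower in 14 of 15 at day 14 (-1.70, SE 0.154). The transcription factor Ets1 (2.2, SE 0.318) and the prion protein gene Prnp (1.20, SE 0.188) were higher in the Schwann-labelled fraction of every animal on both days, by more at day 14.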

How the data were processed

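RNA from sorted macrophages and Schwann-labelled cells of the nerve bridge was measured by SMART-Seq v4 in 30 libraries of day 14 and 32 of day 5. The authors deposited estimated counts per gene for 23361 mouse genes, neither normalized nor filtered. Their processing notes name cutadapt 1.8, TopHat2 2.1.1, Cufflinks 2.2.1 and Cuffnorm with the mm10 build; the program that wrote the counts is not given in the sources used here. Of the values 0.971% were not whole and were rounded, so that edgeR could be used. Columns were matched to samples by title, and 0 were left unmatched. The methods give a stranded mapping option for the study as a whole, and whether strand was used in counting these libraries is not given in the sources used here, so values of overlapping and antisense genes are uncertain.

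Genes that reached 5 CPM or more in 6 or more libraries entered the edgeR 4.0.16 quasi-likelihood test (R 4.3.3, TMM scaling, Benjamini-Hochberg adjusted p under 0.05), with the animal as a block. The pairing comes from the labels, where both fractions carry the same mouse. Deviations from the fraction means correlated within animals at 0.054 to 0.237 (median 0.121), and the sex genes matched the labels in all 30 libraries. Different animals are biological replicates. The minimum of 5 CPM is taken from the study's methods, where it is applied per cell type, after testing with cuffdiff; here both fractions were pooled, so that 6 libraries can come from 3 animals. SE is the absolute log2 difference divided by the square root of F. Interactions of fraction with repair and with day were fitted the same way. Permutation tests were two-sided with 100000 resamples. Python 3.11.15 with scipy 1.17.1 was used for levels.

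In simulated counts for the fraction comparison (9090 genes), 72.2% of genes changed 2-fold and 97.7% of those changed 4-fold were recovered; for fraction by day (10669 genes) it was 72.2% at 4-fold, and for fraction by repair (10219 genes) 75.0% at 4-fold. In these simulations a small set of genes was changed, in both directions, and all others were left without a difference. Counts were drawn from the fitted model. The recovery thus does not cover data in which most genes differ, nor the shift that scaling makes. Lists of 31 cell identities and 15 functions, and the comparison itself, were chosen with earlier results of these data known. Named were the sorting and removed antigens, the given markers, and defining markers and largest differences of each list discussed. The 10 largest differences each way that held in all pairs and the smallest p of each interaction were named too. Any other gene named was chosen after its values were seen, whether or not this is said beside it. Some genes that this rule or these lists take in are not reported here. Positions are from GENCODE M21 for GRCm38, promoters from RefSeq. Alternatives were DESeq2 1.42.0 (genes whose fit did not converge left out), library size scaling, filterByExpr, no filter, no block, limma-voom (limma 3.58.1) with quality weights, each animal left out, and, added after seeing the data, the 5 animals with a library that stands apart left out.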

Additional observations from a re-analysis of the deposited data

Results flagged for a closer look

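Single libraries far from the rest of their group were found in 25 of 131 groups of 7 or 8 libraries examined. The rule flags about 1 in 20 groups when values are normally distributed, which levels in CPM need not be. Every library flagged was the highest of its group, and several groups share genes. No excess over chance can therefore be read from this count. In the Schwann-labelled fraction, delayed replicate 4 was the highest of 7 for the macrophage sorting antigens at 2468 CPM (next library 1163 CPM), for Emr1 at 197 CPM, for Fcgr3 at 144 CPM, for Itgam at 184 CPM and for the monocyte list at 1499 CPM. Immediate replicate 3 was the highest of 8 for neutrophil genes at 21674 CPM, for Itgam at 182 CPM and for the monocyte list at 1132 CPM. The osteoclast and giant cell list was highest in delayed replicate 1 at 6152 CPM and in immediate replicate 7 at 3534 CPM, and the latter also held 44.6 CPM of eosinophil genes. The plasma cell list reached 1406 CPM in immediate replicate 2 and the myelin list 2054 CPM in immediate replicate 6. Skeletal muscle genes were at 624.9 CPM in delayed replicate 2 (next 7.58 CPM) and at 339 CPM in immediate replicate 8 (next 4.86 CPM), and the latter held 543 CPM of endothelial genes.

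In the macrophage fraction, delayed replicate 4 was highest for the macrophage list at 38870 CPM, for type 2 dendritic cells at 1685 CPM and for B cells at 17.9 CPM. Immediate replicate 7 was highest for fibroblasts at 1455 CPM, mural cells at 25.5 CPM and Langerhans cells at 5.94 CPM. Ccr7 reached 46.2 CPM in delayed replicate 7, mast cell and basophil genes 35.5 CPM in delayed replicate 8, and erythroid genes 90.1 CPM in immediate replicate 4.

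The difference between the fractions itself differed between day 5 and day 14 for these named genes, by the fraction by day interaction of edgeR on the log2 scale. It was positive for Gja1 (2.59), Adk (2.01), Ets1 (2.2), Atp5o (0.81) and Prnp (1.20). It was negative for Src (-3.18), Myo10 (-2.92), Cd200 (-2.49), Ddx17 (-1.45), Wdr91 (-1.70) and Cbr2 (-3.90), and for the class II genes Cd74 (-1.95), H2-Aa (-2.31), H2-Ab1 (-2.03), H2-Eb1 (-2.33) and Ciita (-2.87). No explanation of these patterns was tested.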

How the results depend on the processing

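Of 232 named genes tested, 194 kept their direction and their side of the threshold in each of the 22 alternatives that tested them. filterByExpr tested 227 of the 232, the fit without the 5 animals 223 and 5 of the fits without 1 animal 231. Scaled to library size alone, 1928 genes were higher in macrophages (3107 as reported). Without a filter, 2377 genes were at least 4-fold higher in the Schwann-labelled and 1181 in the macrophage fraction (1368 and 666). The fraction by repair interaction gave 3 genes in DESeq2 (0). The fraction by day interaction gave 2649 in DESeq2 and 1053 without the 5 animals with a library that stands apart (1744). Leaving out each animal in turn gave 3362 to 3609 genes higher in the Schwann-labelled and 2997 to 3161 in the macrophage fraction, 1303 to 1346 and 638 to 692 at 4-fold, and 0 to 0 for repair. Without the replicate block, which joins libraries of the same animal, 6866 genes were called in place of 6708, of which 6420 were called in both in the same direction. Without the 2 libraries farthest from the median, r was 0.050 for Sox10 and Ccr7 (-0.37 with all) and -0.68 for Ccr7 and Col1a1 (-0.77). The causes of these shifts were not tested.

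Log2 differences that turned sign were, under library size scaling, Ddx17 at 0.13, Kif1b at 0.27, Exoc6b at 0.19, Xrn2 at 0.050, Tcf4 at 0.30, Bcl3 at 0.087, Mki67 at 0.078 and Nfkbia at 0.21. Without the replicate block they were Mag at 0.86, S100a8 at 5.17, Ctsk at 1.09, Dcstamp at 0.31 and Chi3l3 at 0.81, and with limma-voom Mag at 0.90 and S100a8 at 4.13. Without the 5 animals they were Atp5o at -0.029, Kif1b at 0.029 and Mag at 0.075. Mgl2 turned to -0.028 in DESeq2 and to -0.013 without a filter, where Nfkb1 turned to -0.0041. With single animals left out, Mgl2 was at -0.18 to 0.25, Pecam1 at -0.087 to 0.30, Tcf4 at -0.13 to 0.016 and Nfkb1 at -0.0024 to 0.078. The cause was not tested.

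Genes that reached 5 CPM in fewer than 6 of the 30 libraries were not tested, and a level of 0 allows up to 0.102 to 0.258 CPM by counting error alone. Levels are shares of RNA in 1000 cells, not shares of cells.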

Other observations

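Of 15 chemokine receptor genes tested, Ccr7 included, 4 were higher in the Schwann-labelled fraction and 5 in macrophages, near the shares over all genes tested (34.0% and 29.3%). These counts rest on the setting, at 8 and 4 under library size scaling, 8 and 5 with limma-voom, 7 and 3 without the block on animal and 6 and 5 in DESeq2. Cxcr5, the receptor for the B cell follicle chemokine, had a median of 104 CPM in the Schwann-labelled and 0.051 CPM in the macrophage fraction (log2 difference 8.73, SE 0.572), and the gut-homing receptor Ccr9 62.0 against 1.10 CPM (5.22, SE 0.429). Ccr1 (-3.93, SE 0.452) was higher in macrophages. Il34, a ligand of Csf1r, had a median of 13.5 CPM in the Schwann-labelled and 0 CPM in the macrophage fraction (8.84, SE 0.662), while Csf1r itself was higher in macrophages. Kit, the stem cell factor receptor, was at 53.1 to 541 CPM in the Schwann-labelled and 0 to 5.38 CPM in the macrophage libraries. These genes were chosen after their values were seen.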
